A study of Mus musculus with 6 samples.

Results

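A set of 10 regional transcription factor genes of the rostral brain were examined in 2 sorted fractions of differentiated mouse embryonic stem cells: the homeobox genes Otx1, Otx2, Rax, Hesx1, Emx1, Emx2, Vax1 and Vax2, and the zinc-finger genes Fezf1 and Fezf2. They were picked by name, each through the array row whose annotation gives that symbol alone, and all 10 were found, each on 1 row, among 19938 genes. The cells, on the W4/129S6 background and directed toward endodermal lung and thyroid progenitors, reported activity of the Nkx2-1 locus through a knock-in of green fluorescent protein (GFP). After 14 days of differentiation they were sorted into a GFP-positive fraction (Nkx2-1 high, 3 samples) and a GFP-negative fraction (Nkx2-1 low, 3 samples), which the labels' protocols call biological replicates. Both groups carried the reporter, and GFP marks any cell in which that locus is active, whether in lung, thyroid or brain. The GFP-negative cells are whatever else the cultures held, and the labels name no cell type for them. Pluripotent cells left little trace: of 10 of their marker genes 2 were above background, and neither Pou5f1 nor Nanog was among them.

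These genes divide the rostral neural plate into territories. Otx1 and Otx2 encode homeodomain proteins of forebrain and midbrain, and Otx2 is needed for the rostral brain to form and also acts in anterior visceral endoderm, retina and choroid plexus. Rax marks the eye field and the hypothalamus, Hesx1 the rostral neural plate and the pituitary anlage, Emx1 and Emx2 the dorsal telencephalon, and Vax1 and Vax2 the optic stalk and ventral retina. Fezf1 and Fezf2 encode repressors of the rostral forebrain, and Fezf1 is also used in olfactory epithelium and Fezf2 in deep cortical neurons. Nkx2-1 is itself a gene of the ventral forebrain, chiefly hypothalamus and medial ganglionic eminence, besides lung and thyroid, so the comparison asks whether Nkx2-1 high cells carried a hypothalamic or other forebrain profile.

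Of these genes, Rax was higher in Nkx2-1 high past the test, from a level under background in Nkx2-1 low. Otx2 had the largest difference, about 2.05-fold, but its replicates spread widely and it did not pass. The telencephalic Emx genes, the Vax genes, Otx1 and Hesx1 differed little between the fractions, and Emx2 and Hesx1 were not above background in either. In all, 1 of the 10 passed, upward, and 0 passed downward (0 lower also at an unadjusted p under 0.05 by limma, and 3 higher). Over all genes 2.90% passed upward and 3.09% downward, and the count of 1 in 10 rests on a single gene. The median log2 difference over the 10 was 0.11, against -0.01 over all genes.

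Values are log2 expression after the authors' RMA normalization. Differences are taken as the Nkx2-1 high mean less the Nkx2-1 low mean. Their standard error (SE) and adjusted p come from limma, a linear-model test fitted over all 19938 genes, with 0.05 as the threshold. "Rose" and "fell" are used of genes past it. A background level of 4.26 was taken from olfactory and vomeronasal receptor genes. No fold is given where both group means lie under it, and "at least" marks a fold taken against it. By this level 8 of the 10 genes exceeded background somewhere, 6 of them in both groups and 2 in Nkx2-1 high alone. Of all genes 67.8% did so, and the count of 8 in 10 is no result about these genes. At a stricter level of 5.34 only 4 of the 10 did. An array level depends on the probes, so no gene's level is set against another's. In sorted populations, fewer cells that express a gene and less RNA per cell cannot be told apart.

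The promoter of Otx2 is shown because this gene had the largest difference and because Otx proteins, with a lysine in the recognition helix of the homeodomain, prefer TAATCC, whereas most of the other homeodomain proteins named here prefer sites such as TAATTA. RefSeq (GRCm38.p6) gave 300-base windows, from 250 bases before to 50 after the start, for 7 of the 10 genes, 10 windows in all, of which 4 are starts of Otx2. Otx1, Rax and Vax2 had none. TAATCC was searched on both strands (GGATTA on the other), TAATTA reads the same on both, and no match overlapped another. The 2 windows of Otx2 with a match, both on the minus strand of chromosome 14, are written 5′ to 3′ with matches in capitals.
Otx2, chr14:48665060-48665359, minus strand: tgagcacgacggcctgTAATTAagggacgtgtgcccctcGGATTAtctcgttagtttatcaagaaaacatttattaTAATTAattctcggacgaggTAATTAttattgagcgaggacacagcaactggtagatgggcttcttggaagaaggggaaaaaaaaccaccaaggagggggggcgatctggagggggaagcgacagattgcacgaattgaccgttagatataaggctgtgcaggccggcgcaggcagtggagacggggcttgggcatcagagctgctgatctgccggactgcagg
Otx2, chr14:48667595-48667894, minus strand: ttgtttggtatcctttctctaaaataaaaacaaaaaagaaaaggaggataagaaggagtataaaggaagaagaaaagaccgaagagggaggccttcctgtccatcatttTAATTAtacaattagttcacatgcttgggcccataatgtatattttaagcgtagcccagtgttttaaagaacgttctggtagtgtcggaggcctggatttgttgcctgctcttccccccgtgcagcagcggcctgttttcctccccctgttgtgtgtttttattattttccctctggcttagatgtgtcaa
The first window held 1 TAATCC match, read as GGATTA, beginning at -211 from the start, and 3 TAATTA matches. The other held 1 TAATTA. Over all 32851 windows in the table, 7.06% held TAATCC and 5.29% held TAATTA. Among the windows of the 10 genes TAATCC was in 1, that of Otx2 above, and TAATTA in 3, the third being of Emx2. CAAGTG, the core of the site preferred by Nkx2-1 and its relatives (CACTTG on the other strand), was in 0 of the 10 windows and in 13.6% of all. A match describes these letters and is no evidence of binding, and no match says nothing of the factor.

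Nkx2-1, on which the cells were sorted, checks the labels. Its log2 expression was 7.62, 7.77 and 7.77 in the 3 Nkx2-1 high samples and 5.42, 5.23 and 5.34 in the 3 Nkx2-1 low samples. Over all genes, 1196 differed between the fractions, and within a group the correlation across genes, which are not independent replicates, was 0.994 to 0.996 (Pearson). The samples numbered 3 stand somewhat apart, and they carried the highest value of their group for 8 of the 10 genes in Nkx2-1 high and 7 of the 10 in Nkx2-1 low. Over all genes these shares were 38.8% and 35.6%. The part of this in the results was not tested beyond leaving those samples out.

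**Figure D1:**
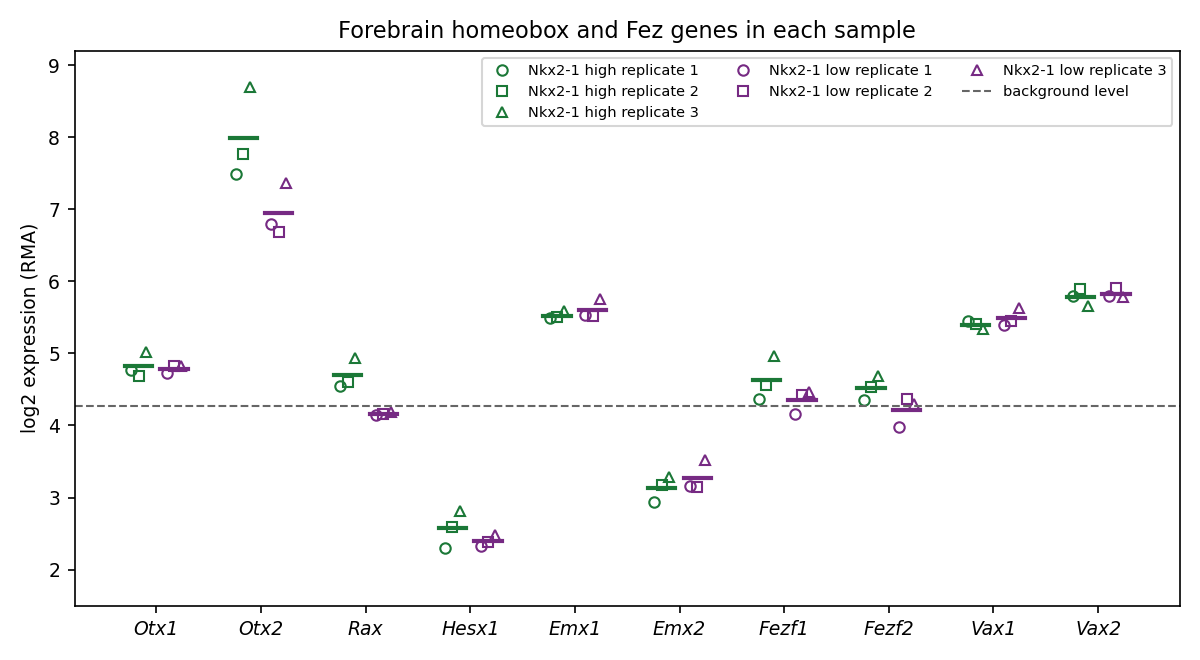
Log2 expression of the 10 genes in each of the 6 samples (green, Nkx2-1 high; purple, Nkx2-1 low; circle, square and triangle are replicates 1, 2 and 3), with group means as bars and the background level of 4.26 dashed. Otx2 and Rax are the 2 genes whose groups did not overlap, and for both the triangle is the highest in each group.

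Otx2 stood at 7.48, 7.77 and 8.70 in Nkx2-1 high and at 6.80, 6.69 and 7.36 in Nkx2-1 low. Every Nkx2-1 high sample lay above every Nkx2-1 low sample, but the lowest of the former (7.48) was close to the highest of the latter (7.36), and replicate 3 was the highest in both groups. The means were 7.98 ± 0.63 (SD, n = 3) and 6.95 ± 0.36 (SD, n = 3), a difference of 1.04 ± 0.28 (SE, 95% interval 0.40 to 1.67, limma adjusted p = 0.0664). Both fractions expressed Otx2 well above background, and its transcript was not confined to the GFP-positive fraction. Of the 160 genes with a log2 difference of at least 1 in size, 2 did not pass, Otx2 and Vtn (the second named because the count is so small). Only 13 of 19938 genes had a larger SE than Otx2, against a median of 0.09. In Nkx2-1 high the SD of Otx2 was exceeded by 10 genes, and in Nkx2-1 low by 214.

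The Otx2 call turned on single samples. Dropping Nkx2-1 high replicate 1 took it past the threshold (1.29, adjusted p = 0.0398), as did dropping Nkx2-1 low replicate 3 (1.24, adjusted p = 0.0455). It did not pass in the other 4 fits without 1 sample, where the adjusted p reached 0.203 without Nkx2-1 low replicate 2. The difference was smallest without Nkx2-1 high replicate 3 (0.68, adjusted p = 0.0882). Without both samples numbered 3 it was 0.89 and passed (adjusted p = 0.00536). The difference was positive in all 15 alternatives that were run. As the groups did not overlap, dropping samples could not change its sign. It passed in 6, among them the fit without both samples numbered 3, which was chosen after seeing the data. By exact permutation, two-sided, p was 0.1, below which a design of 3 and 3 samples cannot go. Groups without overlap were seen for 2 of the 10 genes and for 24.7% of all genes.

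Otx1, the paralogue of Otx2 that acts later and mainly in cortex and sense organs, was level between the fractions. It stood at 4.77, 4.69 and 5.02 in Nkx2-1 high and at 4.72, 4.82 and 4.82 in Nkx2-1 low, so the groups overlapped. The difference was 0.04 ± 0.10 (95% interval -0.18 to 0.26, limma adjusted p = 0.887).

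Rax, needed for the eye field and expressed in hypothalamic progenitors, rose. Its log2 values were 4.55, 4.60 and 4.94 in Nkx2-1 high and 4.15, 4.16 and 4.19 in Nkx2-1 low. All 3 Nkx2-1 high samples were above the background level and all 3 Nkx2-1 low samples were below it. The difference was 0.53 ± 0.11 (95% interval 0.29 to 0.77, limma adjusted p = 0.0174). Taken against the background level, Nkx2-1 high was at least 1.35-fold above Nkx2-1 low. The 3 Nkx2-1 low samples lay within an SD of 0.02, while the SD in Nkx2-1 high was 0.21. The call was lost on dropping Nkx2-1 low replicate 1 (adjusted p = 0.0624) or Nkx2-1 low replicate 2 (adjusted p = 0.0630). With the stricter background level of 5.34, Rax was not above background in either group.

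Hesx1, a homeobox repressor of the rostral neural plate and Rathke's pouch, was not above background in any of the 6 samples. Its values ran from 2.31 to 2.82 in Nkx2-1 high and from 2.33 to 2.48 in Nkx2-1 low (limma adjusted p = 0.510). The groups overlapped.

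The Fezf genes lay next to the background level. Fezf1 stood at 4.37, 4.56 and 4.96 in Nkx2-1 high and at 4.15, 4.42 and 4.46 in Nkx2-1 low, with overlapping groups and a difference of 0.28 ± 0.15 (95% interval -0.05 to 0.61, limma adjusted p = 0.347). Fezf2 stood at 4.35, 4.53 and 4.69 in Nkx2-1 high and at 3.97, 4.37 and 4.30 in Nkx2-1 low. Only the lowest Nkx2-1 high sample overlapped the other group. The difference of Fezf2 was 0.31 ± 0.12 (95% interval 0.04 to 0.59, limma adjusted p = 0.197). Its mean was above background in Nkx2-1 high alone, at least 1.20-fold that in Nkx2-1 low. Neither gene passed in any of the 15 alternatives, and both differences were positive in all 15.

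The dorsal telencephalic genes gave no difference. Emx1 stood at 5.49, 5.50 and 5.59 in Nkx2-1 high and at 5.53, 5.52 and 5.75 in Nkx2-1 low, a difference of -0.08 ± 0.09 (95% interval -0.27 to 0.12, limma adjusted p = 0.712). Emx2, which the urogenital system also uses, was not above background in any sample, at 2.94 to 3.28 in Nkx2-1 high and 3.14 to 3.52 in Nkx2-1 low (limma adjusted p = 0.617). For both genes the groups overlapped.

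The optic stalk and ventral eye genes Vax1 and Vax2 were above background in all 6 samples and level between the fractions. Vax1 stood at 5.46, 5.41 and 5.34 in Nkx2-1 high and at 5.40, 5.46 and 5.63 in Nkx2-1 low (difference -0.09 ± 0.09, 95% interval -0.29 to 0.10, limma adjusted p = 0.641). Vax2 stood at 5.80, 5.89 and 5.66 in Nkx2-1 high and at 5.80, 5.91 and 5.78 in Nkx2-1 low (difference -0.05 ± 0.09, 95% interval -0.24 to 0.15, limma adjusted p = 0.826). The groups overlapped for both. Otx1, Vax1 and Vax2 changed sign in some alternatives and passed in none.

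**Figure D2:**
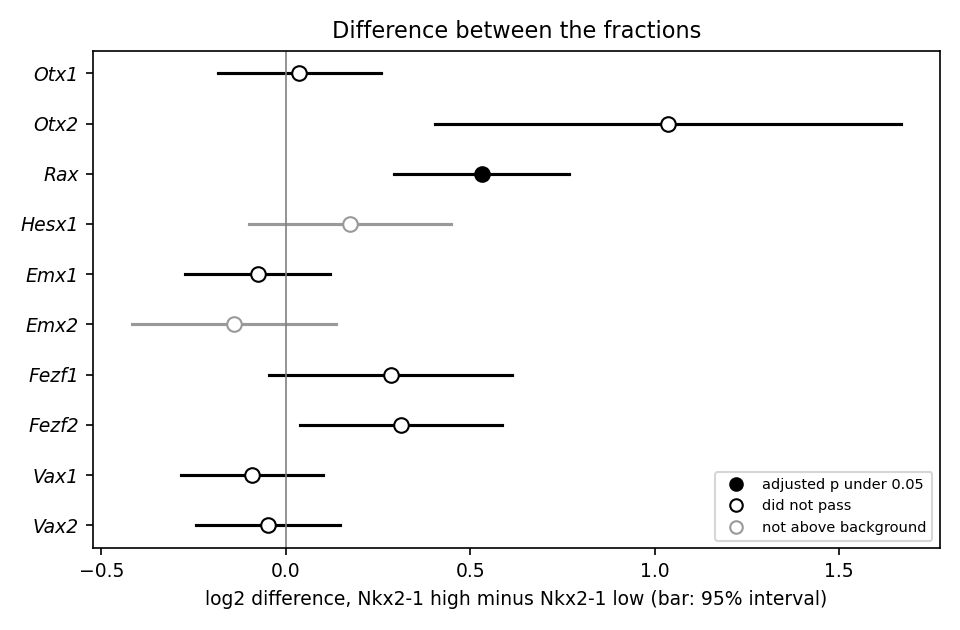
Log2 difference of each gene between the fractions (Nkx2-1 high minus Nkx2-1 low), with its 95% interval from limma as a bar. The filled point, Rax at 0.53, passed the test; Otx2 at 1.04 has the widest interval (0.40 to 1.67), and grey marks Hesx1 and Emx2, not above background.

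The genes whose 6 values, each centred on the gene's own mean, lay nearest to those of Otx2 were sought among the 13517 other genes above background. The nearest was A2m, an alpha-2-macroglobulin gene (root mean square difference 0.143), and then came Scube1 (0.205), Calcrl (0.253), Slc35f1 (0.256) and Nup62cl (0.261), over 6 samples. A2m stood at 8.10, 8.32 and 8.95 in Nkx2-1 high and at 7.30, 7.40 and 7.81 in Nkx2-1 low, so replicate 3 was the highest in both groups, as for Otx2. For Rax the nearest were Nalcn, a sodium leak channel gene (0.0410), the neurotrophin receptor gene Ntrk3 (0.0478), Phyhd1 (0.0522), Atp1b2 (0.0580) and Sp5 (0.0581). All 10 were chosen for their likeness, so their differences carry no test here, and none is one of the forebrain genes above.

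**Figure D3:**
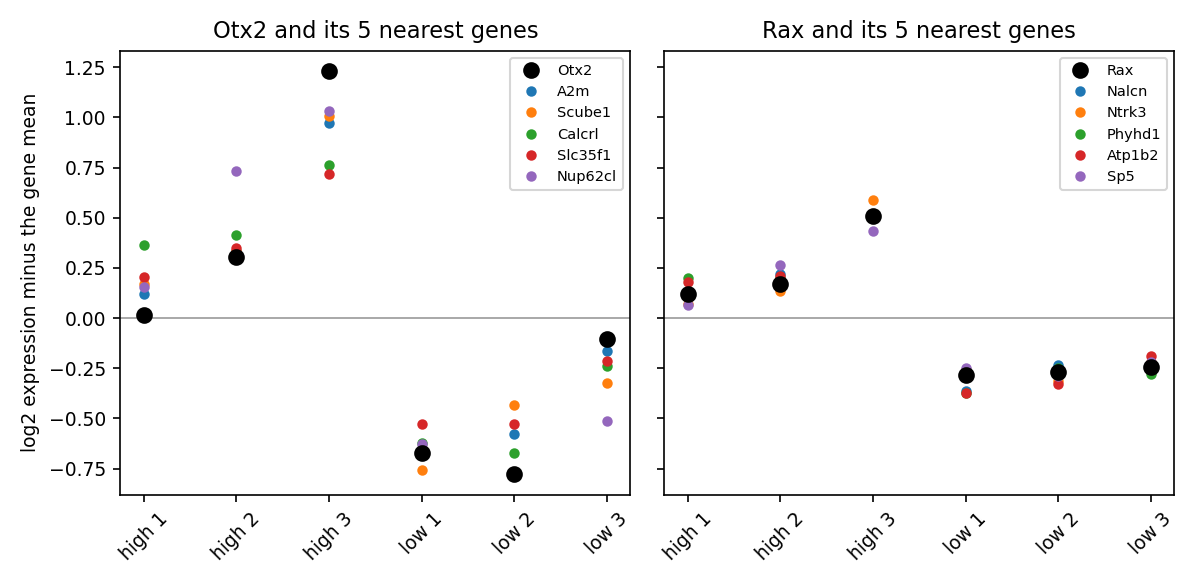
Log2 expression minus the gene's mean over the 6 samples, for Otx2 (left) and Rax (right) as large black points and for the 5 genes nearest to each as coloured points. In both panels replicate 3 is the highest Nkx2-1 high sample, and the Nkx2-1 low points of Rax lie closer together than those of Otx2.

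Other genes of the hypothalamus and ventral diencephalon did not shift together. Of 28 measured, 1 rose and 2 fell, with a median log2 difference of 0.10, against -0.01 over all genes. The mean was above background for 22 of them in Nkx2-1 low and for 20 in Nkx2-1 high. Of all genes, 66.7% were above it in Nkx2-1 low and 66.8% in Nkx2-1 high. Isl1, a LIM-homeodomain gene of ventral hypothalamus that pharyngeal and motor neuron cells also express, stood at 7.88, 7.73 and 7.42 in Nkx2-1 high and at 6.51, 6.48 and 6.06 in Nkx2-1 low (difference 1.33 ± 0.15, limma adjusted p = 0.000771), with no overlap. Foxd1, used in ventral diencephalon and in kidney stroma, fell (-0.64 ± 0.15, adjusted p = 0.0405), and lost the call without any of the Nkx2-1 high samples and without Nkx2-1 low replicate 2 (adjusted p up to 0.127). Lhx9 fell too (-0.62 ± 0.14, adjusted p = 0.0289), and lost the call without replicate 1 or 2 of either group (adjusted p up to 0.105). Nkx2-4, the closest relative of Nkx2-1, stood at 5.55, 5.45 and 5.65 in Nkx2-1 high and at 5.40, 5.16 and 5.16 in Nkx2-1 low, and did not pass (0.31 ± 0.09, adjusted p = 0.0933). Nkx2-2 differed by 0.14 ± 0.10 (adjusted p = 0.516). The count of the list fell to 1 when Nkx2-1 high replicate 1, Nkx2-1 high replicate 2 or Nkx2-1 low replicate 2 was dropped.

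Telencephalic genes were lower where they changed. Of 17 measured, 6 fell and 0 rose (median log2 difference -0.15; by limma 1 was higher at an unadjusted p under 0.05). The 4 with the largest change were the LIM-homeodomain genes Lhx8 (-2.54 ± 0.10) and Lhx6 (-1.52 ± 0.14) and the Dlx genes Dlx5 (-0.93 ± 0.10) and Dlx1 (-0.93 ± 0.21). In the medial ganglionic eminence Lhx6 and Lhx8 lie downstream of Nkx2-1, and first-arch mesenchyme expresses them as well. Lhx8 stood at 5.35, 5.34 and 5.28 in Nkx2-1 high and at 8.06, 7.87 and 7.66 in Nkx2-1 low, which is the reverse of the order of Nkx2-1. Dlx1 did not pass once Nkx2-1 high replicate 2, Nkx2-1 low replicate 1 or Nkx2-1 low replicate 2 was dropped (adjusted p up to 0.108). Tbr1, of early cortical neurons, was not above background.

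Of 15 measured genes of the eye field and optic vesicle, 1 rose and 0 fell (median -0.06; by limma 1 was lower at an unadjusted p under 0.05). It was Mitf, a regulator of pigment cells in retina and skin, at 5.36, 5.55 and 5.31 in Nkx2-1 high and 4.49, 4.45 and 4.82 in Nkx2-1 low (0.82 ± 0.11, limma adjusted p = 0.00280). Averaged over its array rows, Mitf differed by less (0.45, limma adjusted p = 0.0173). The pigment genes Tyr and Rpe65 were not above background, while Pmel, of pigment granules, was in all 6 samples and differed by -0.07 (adjusted p = 0.760). Six3 and Six6, which act with Rax in the eye field, differed by 0.28 ± 0.10 (adjusted p = 0.147) and -0.31 ± 0.17 (adjusted p = 0.363). Of 11 pituitary genes 0 rose and 0 fell (unadjusted p under 0.05 by limma for 0 upward and 1 downward). Lhx3 was not above background, and Lhx4 differed by -0.09 ± 0.10.

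In the midbrain and hindbrain list 1 of 13 genes fell and 0 rose (by limma 1 was higher at an unadjusted p under 0.05). It was En2, a homeobox gene of the midbrain-hindbrain junction, at 5.03, 4.94 and 5.42 in Nkx2-1 high and 6.06, 6.03 and 6.35 in Nkx2-1 low (-1.02 ± 0.13, limma adjusted p = 0.00229). For this gene the groups did not overlap, and it is also a gene of first-arch mesenchyme. En1 differed by -0.50 ± 0.15 (adjusted p = 0.0892), and its groups overlapped by less than 0.01 at their edges. It passed without Nkx2-1 low replicate 1 (adjusted p = 0.0421) and with array weights (-0.55, adjusted p = 0.0271), and the list then held 2 genes that fell.

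**Figure D4:**
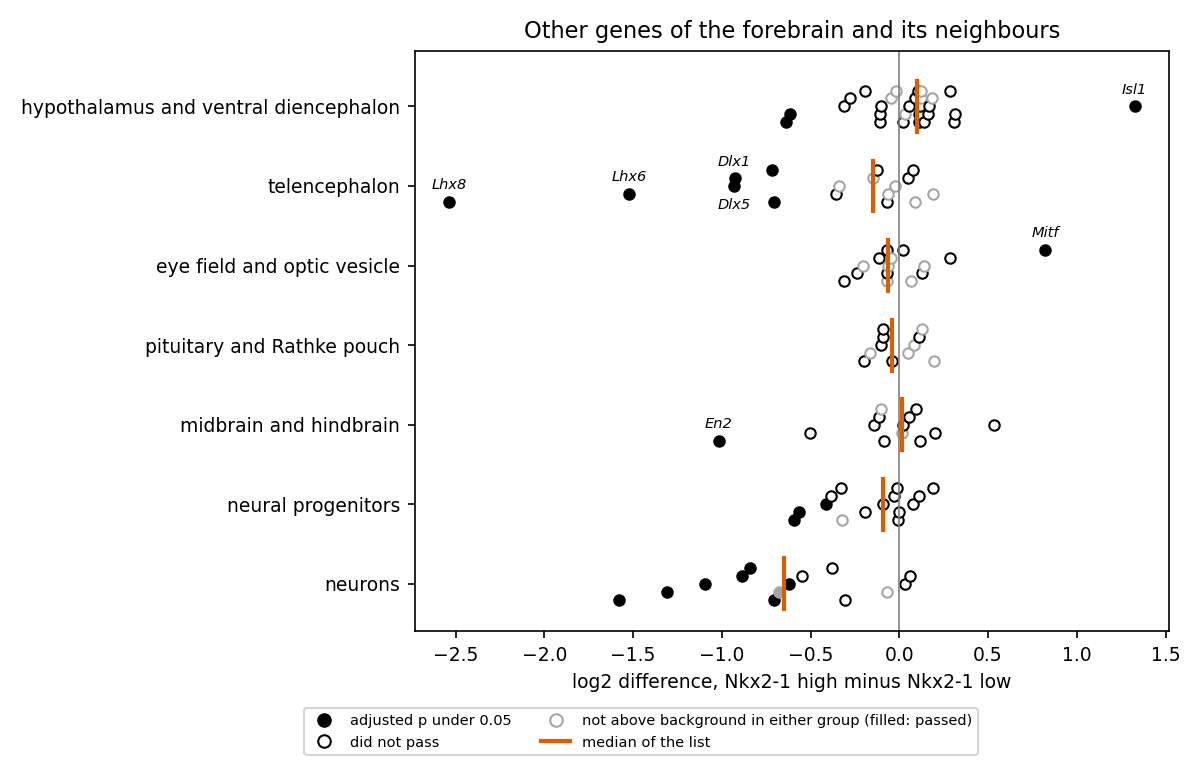
Log2 difference (Nkx2-1 high minus Nkx2-1 low) of each measured gene in 7 lists, with filled points past the test, grey points not above background in either group and the median of each list as an orange bar. Isl1 (1.33) and Mitf (0.82) lie to the right, Lhx8 (-2.54), Lhx6 (-1.52) and En2 (-1.02) to the left, and the median of the neurons list is -0.65.

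Markers of the cell types that could carry these genes moved as follows, and their part in the results above was not tested. Of 15 neural progenitor genes 3 fell and 0 rose, namely Fabp7 (-0.60), Notch1 (-0.56) and Nes (-0.41). Fabp7 and Nes lost the call on dropping 1 sample, Fabp7 in 4 of 6 such fits (Nkx2-1 high replicate 1 or 2, Nkx2-1 low replicate 2 or 3, adjusted p up to 0.147) and Nes in 5 (all but that without Nkx2-1 high replicate 1, adjusted p up to 0.169). Sox1 and Sox2 differed by -0.01 and 0.11. The summed log2 level of the list was 83.5 to 86.5 in Nkx2-1 high and 85.5 to 88.6 in Nkx2-1 low. Of 14 neuron genes 8 fell and 0 rose, with Ina (-1.58), Dcx (-1.31), Stmn2 (-1.09) and Gap43 (-0.89) the largest and Tubb3 at -0.84. Scg3, among those that fell, was not above background in any sample. The mean was above background for 7 of the 14 in Nkx2-1 high and for 12 in Nkx2-1 low. The summed level of the neuron genes was 63.0 to 66.3 in Nkx2-1 high and 73.3 to 73.9 in Nkx2-1 low.

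Of 14 genes of anterior visceral and definitive endoderm, which use Otx2 and Hesx1, Hhex rose (0.98 ± 0.15) and the secreted Wnt antagonist gene Dkk1 fell (-1.21 ± 0.16). Their summed level was 74.1 to 75.1 in Nkx2-1 high and 74.4 to 74.6 in Nkx2-1 low, and Cer1, of anterior visceral endoderm, was not above background. Of 12 epithelial genes Epcam (-0.81) and Tmem30b (-0.76) fell (Tmem30b not without Nkx2-1 low replicate 2, adjusted p = 0.0528) and 0 rose. Cdh1 was at -0.36, while Krt18 (0.35), Krt8 (0.16) and Krt19 (0.12) went the other way without passing. By limma 1 epithelial gene was higher and 4 were lower at an unadjusted p under 0.05. The summed level was 54.8 to 56.7 against 56.8 to 59.7. Of 15 genes of mesenchyme and neural crest 11 fell and 0 rose, led by Postn (-2.34), Alx1 (-2.10), Pdgfra (3.99-fold lower) and Crabp1 (-1.92), with Prrx1 at -1.90. Their summed level was 97.3 to 101 in Nkx2-1 high and 115 to 118 in Nkx2-1 low.

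Tissues that use Emx2 or Fezf1 outside the brain gave no shift in common. Of 12 genes of intermediate mesoderm and kidney 3 rose and 3 fell. Among them Gata3 (0.78) and Pax8 (0.60) rose, and Hoxd11 (-0.60) and Osr1 (-0.55) fell. Pax2 was at -0.11, and the summed level was 67.7 to 68.6 against 67.7 to 68.3. The lists share genes, as Pax2 is on the eye field list too. The rises of Gata3 and Pax8, like that of Hhex above, therefore name no tissue, and which cells carried them was not tested. Hoxd11 kept its call only when Nkx2-1 low replicate 3 was the sample dropped (adjusted p up to 0.0771 otherwise), and Osr1 lost the call without Nkx2-1 high replicate 2 or Nkx2-1 low replicate 3 (adjusted p up to 0.0708). Of 11 genes of olfactory epithelium Gap43, which is also on the neurons list, fell and 0 rose. By limma 1 was higher and 3 were lower at an unadjusted p under 0.05. The higher was Gnal (0.28), not above background in either group. The summed level was 53.7 to 54.8 against 54.8 to 55.6. Omp, of mature olfactory neurons, differed by 0.11 and Gng8 by -0.08.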

How the data were processed

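Total RNA of 6 sorted samples was amplified (WT-Ovation Pico) and biotin-labelled, per the labels' protocols. The authors deposited 1 normalized log2 value per transcript cluster. The submitters' processing notes name RMA, without its version, and log2 was taken from that and from the range of the values. Scan batches and scanner files were not used here, which leaves array batches untested, and the number of arrays limits the precision. RMA makes arrays share 1 distribution, so a shift of most genes would not show.

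Of 29011 rows, 21789 had 1 gene symbol in the platform annotation. The row with the highest mean was kept per gene, which gave 19938 genes. The background level is the 95th percentile of 1212 rows of olfactory and vomeronasal receptors, and the 90th and 99th were alternatives. The comparison used lmFit and eBayes of limma 3.58.1 (R 4.3.3), with Benjamini-Hochberg adjustment over all genes and no covariate. Single values were also compared by exact permutation in scipy 1.17.1. Tested on simulated data of 19938 genes for this comparison, with independent normal noise, it called 77.6% of genes given a log2 change of 0.5 and 100% of genes given 1 or 2, besides 13 false calls. The changes were given to genes drawn at random, and few genes vary as much as Otx2, so these rates do not speak for it.

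The 10 genes and the 13 lists (187 of 200 entries measured) were chosen with earlier results of these data known. The lists are hypothalamus and ventral diencephalon, telencephalon, eye field and optic vesicle, pituitary, midbrain and hindbrain, neural progenitors, neurons, endoderm, epithelium, mesenchyme and neural crest, intermediate mesoderm and kidney, olfactory epithelium, and pluripotent cells. Named genes are Nkx2-1, the 10, up to 4 changed genes of each list and its first 2 entries, and the 5 genes nearest to Otx2 and to Rax. Others were chosen after their values were seen. Lists were described by counts and medians, with no set test. The alternatives were median centring, cyclic loess, only genes above background, robust eBayes with a trend, a replicate block, array weights, averaging a gene's rows, fitting all rows at once, dropping each sample, and, chosen after seeing the data, dropping both samples numbered 3.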

Additional observations from a re-analysis of the deposited data

How the results depend on the processing

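Among the 10 forebrain genes, 1 was past the threshold in the fit reported above and 2 (Rax and Otx2, both higher) were with array weights, with only genes above background, with the replicate block and without both samples numbered 3. Leaving out 1 sample at a time gave 0 to 2 of them, all higher, with 0 lower in every fit. The difference of Otx2 was 0.92 with array weights (adjusted p = 0.0416), 1.04 with only genes above background (adjusted p = 0.0468) and 1.04 with the replicate block (adjusted p = 0.00189). That of Rax lay between 0.41 and 0.60 over 15 alternatives, of which it passed 13. Rax entered the fit with only genes above background through its Nkx2-1 high mean alone, so its pass there adds no support. With the 99th percentile of the receptor rows as background level, 4 of the 10 genes were above it in place of 8, and with the 90th, 8.

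The count of all changed genes was 624 to 1086 without 1 sample and 1151 to 1681 under the other planned settings, and 877 without both samples numbered 3. The count of changed hypothalamic genes was 1 to 4 without 1 sample. Changed genes over all lists numbered 43, and 33 to 42 without 1 sample. The difference of Nkx2-1 ran from 2.34 to 2.44. No called result changed sign, while Otx1, Vax1 and Vax2, not called, ran from -0.06 to 0.10, from -0.14 to 0.01 and from -0.10 to 0.02.

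Whether the shared replicate numbers pair the samples is not settled by these data. Deviations from the group means correlated at 0.18, -0.004 and 0.28 for numbers 1, 2 and 3 across genes. The samples numbered 1 and 3 correlated best with their own number. Those numbered 2 did not (replicate 2 of Nkx2-1 high reached 0.15 with replicate 1 of Nkx2-1 low). With the replicate block 1470 genes passed in place of 1196. Among named genes it brought Otx2 past the threshold, as given above, and En1 (adjusted p = 0.00695), whose list then held 2 genes that fell. It also brought the Cdh1 log2 difference past it (adjusted p = 0.0476) and took the Nes log2 difference out (adjusted p = 0.0501), and it changed the call of no other named list gene or forebrain gene. Differences in genes next to the background level, such as Fezf1, Fezf2 and Rax, are limited by signal, and array values compress folds there.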

Other observations

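Otx2 was not alone in its spread within groups. Trh, the gene of thyrotropin-releasing hormone, a hypothalamic peptide that other embryonic cells also make, had the largest SE of all genes in the comparison (0.35). It stood at 7.33, 7.44 and 8.74 in Nkx2-1 high and at 7.79, 7.71 and 8.60 in Nkx2-1 low, a difference of -0.19 (limma adjusted p = 0.829), so replicate 3 was the highest in both groups while the groups overlapped. Wnt1, the signal of the midbrain-hindbrain junction, stood at 4.30, 4.35 and 5.67 in Nkx2-1 high and at 4.50 or less in Nkx2-1 low (0.53 ± 0.31, limma adjusted p = 0.417), with the highest value of each group again in replicate 3. Sox2, a neural progenitor gene, stood at 6.17, 6.04 and 6.71 in Nkx2-1 high and at 6.07, 6.03 and 6.50 in Nkx2-1 low. These 3 genes were picked after their values were seen, from the lists above.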
